A study of Mus musculus with 2 samples.

Results

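Cycling fibro-adipogenic cells are Pdgfra-positive mesenchymal cells of skeletal muscle that also hold transcripts of Mki67 and Top2a, which dividing cells make. They were selected on measured values. A barcode (the tag of 1 droplet) was a member if it had at least 5000 UMIs (unique molecular identifiers, each counting 1 captured RNA molecule), at most 10% of them from mitochondrial genes, at least 2 UMIs of Pdgfra and at least 100 of Dcn, Col1a1 and Col3a1 together. It could hold at most 2 UMIs of the tendon gene Tnmd and at most 1 of Csf1r, Cdh5 and Cdh15 together, which mark phagocytes, endothelium and myogenic cells. It also needed at least 4 UMIs of Mki67 and Top2a together. This gave 152 cells (50 WT and 102 KO) out of 13508 barcodes that passed the depth and mitochondrial limits (6722 WT and 6786 KO) and 794 that passed every part except the last (431 WT and 363 KO).

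Cells were taken from the injured tibialis anterior (TA), a shin muscle, of mice 8-12 weeks old and profiled by droplet single-cell RNA-seq with 10x Genomics 3' v2 chemistry. WT is the wild-type library and KO the library of the conditional knockout model Setdb1-cKO. SETDB1 is an enzyme that places repressive methyl marks on lysine 9 of histone H3. Digested muscle was stained with Hoechst and propidium iodide and sorted, and the series title names SETDB1 and muscle stem cells of regenerating muscle as its subject. Each group is 1 library. The sources used here do not give the Cre driver, the number of animals or whether they were pooled, the kind of injury or the day after it. With 1 library per group no difference below has a replicate check or a p-value. Each compares these libraries, and every interval in brackets is a 95% interval that covers counting error only.

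Fibro-adipogenic progenitors lie between muscle fibres, divide soon after damage, and lay down a provisional matrix and secrete factors that act on muscle stem cells. Most of them are cleared as repair goes on, and in chronic damage they can turn into matrix-laying fibroblasts or fat cells. A dividing cell makes DNA-synthesis and histone genes in S phase and switches on mitotic genes such as Cdk1, Ccnb1, Mki67 and Top2a towards G2 and M phase.

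The markers of the name that the rule did not use were read first. All 9 such fibro-adipogenic markers had UMIs in both libraries, at 10704 CPM in WT and 14453 CPM in KO members together (CPM is the UMIs of a gene per 1000000 UMIs of the summed cells). Most of both sums was Col1a2 (7216 and 11070 CPM), a collagen gene like the rule genes Col1a1 and Col3a1. All 7 cycling markers besides Mki67 and Top2a had UMIs too, with 1170 and 1066 CPM together. Pdgfra, which the rule used, a receptor for platelet-derived growth factor, stood at 135 and 110 CPM. Phagocyte markers summed to 484 CPM in WT and 570 CPM in KO members, and 13 of 13 had UMIs, with Lyz2 at 164 and 188 CPM. Free RNA of the same libraries, read from droplets with 20 to 100 UMIs, held Lyz2 at 6280 and 6101 CPM, so the Lyz2 in the members equals 2.61% and 3.08% of it. Endothelial markers summed to 17.5 and 16.2 CPM (8 and 9 of 9 with a UMI, Tie1 at 0 in WT). Myogenic markers summed to 27.1 and 31.2 CPM (7 and 6 of 8, with Myod1 at 0 in WT and Pax7 and Myf5 at 0 in KO). Mural cell markers reached 7.33 and 8.44 CPM (3 and 6 of 7, Higd1b at 0 in both). Tenocyte markers summed to 591 and 763 CPM (6 and 7 of 7), and Thbs4, which encodes a thrombospondin, made up 559 and 687 CPM of that, while Tnmd was limited by the rule.

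Members were deep cells. Their median was 36445.5 UMIs in WT (8352 to 63870) and 43380 UMIs in KO (5072 to 89699), with medians of 5742.5 and 6368 genes and mitochondrial shares of 0.567% and 0.507%. Their UMIs summed to 1773848 in WT and 4264210 in KO. The 2 whole libraries held 121703522 and 138667420 UMIs. No member barcode occurred in both libraries, and 8 of the barcodes past the depth and mitochondrial limits did. One WT member held 99.0% of the WT members' Hbb-bs UMIs, a haemoglobin gene, so haemoglobin values are not compared.

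The numbers of Mki67 and Top2a UMIs, which chose the members, ranged from 4 to 85 in WT (median 15) and from 4 to 157 in KO members (median 21). Just inside the limit, 5 WT and 10 KO cells held 4 or 5 of these UMIs, with 0.523% and 0.304% of their UMIs in a list of 54 G2 and M phase genes. That list includes Mki67 and Top2a. Just outside it, 19 WT and 24 KO cells held 2 or 3, with 0.168% and 0.165% in that list. Cells with 12 or more, 30 in WT and 71 in KO, stood at 1.12% and 0.908%, and cells with none, 319 in WT and 196 in KO, at 0.0449% and 0.0572%. The G2 and M phase share thus climbed step by step with the 2 genes in both libraries, in part because the list holds both. The 319 and 196 cells with none are called non-cycling below, and the 62 WT and 65 KO cells with 1 to 3 UMIs belong to neither side.

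A larger share of fibro-adipogenic cells cycled in the KO than in the WT library. Among the cells that met the other parts of the rule, 50 of 431 (11.6% [8.73 to 15.0], Clopper-Pearson interval) cycled in WT and 102 of 363 (28.1% [23.5 to 33.0]) in KO, a ratio of 2.42 [1.71 to 3.47]. KO fibro-adipogenic cells were also deeper, with a median of 32517 UMIs against 23262, and a deeper cell reaches 4 UMIs more easily. With every cell thinned at random to 5000 UMIs, 16 of 431 (3.71% [2.14 to 5.96]) and 44 of 363 (12.1% [8.95 to 15.9]) still held 4 or more, a ratio of 3.27 [1.81 to 6.20]. A count that leaves out Mki67 and Top2a, at least 5 other G2 and M phase genes with a UMI after the same thinning, gave a ratio of 2.0 [1.49 to 2.69]. Counted cells are a share of those captured, and a different yield of non-cycling cells cannot be told apart from more division.

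The KO library also held a larger share of cycling cells in the myogenic gate (at least 2 UMIs of Cdh15), with 16.1% [13.3 to 19.3] in WT and 34.1% [28.8 to 39.6] in KO, a ratio of 2.11 [1.59 to 2.81]. In mononuclear phagocytes (at least 2 UMIs of Csf1r) the shares were 2.78% [2.24 to 3.41] and 3.72% [3.13 to 4.39], and in endothelial cells (at least 2 UMIs of Cdh5) 3.42% [2.23 to 5.01] and 3.54% [2.30 to 5.18]. The ratio intervals of these classes, 1.02 to 1.77 and 0.570 to 1.88, reach below that of the fibro-adipogenic cells. The differences between the classes were not tested. Free RNA held Mki67 at 50.2 CPM in WT and 75.5 CPM in KO and Top2a at 74.8 and 92.3 CPM, and the members held Mki67 at 254 and 300 CPM and Top2a at 409 and 451 CPM.

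**Figure D1:**
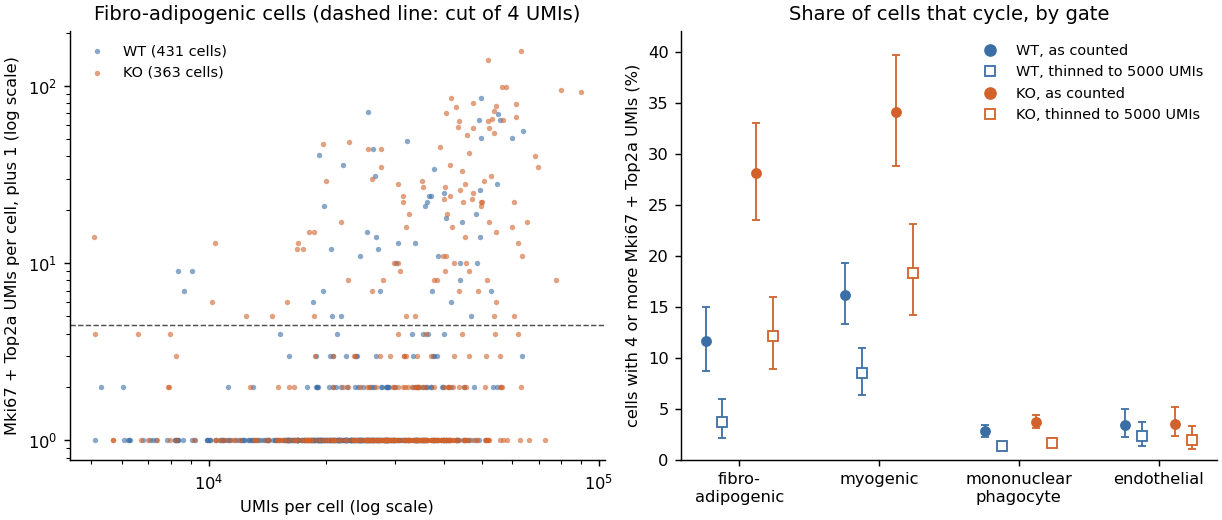
Left, Mki67 and Top2a UMIs (plus 1, log scale) against all UMIs (log scale) in each of the 431 WT and 363 KO fibro-adipogenic cells, where the 50 WT and 102 KO cells above the dashed line are the members. Right, the percent of cells with 4 or more Mki67 and Top2a UMIs in 4 cell classes, as counted (filled circles) and after thinning to 5000 UMIs (open squares), with 95% Clopper-Pearson intervals; the fibro-adipogenic shares are 11.6% in WT and 28.1% in KO as counted.

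Genes that set cycling apart from non-cycling fibro-adipogenic cells follow from how the members were chosen, and are given as a description with no test. A gene is called higher or lower when it has at least 20 UMIs in both sums together, a ratio of at least 1.5 in either direction and an interval that does not hold 1. In WT, 1335 of 11716 genes (11.4%) were higher in cycling cells and 1058 (9.03%) lower. In KO, 1121 of 11860 (9.45%) were higher and 1141 (9.62%) lower. With TMM scaling the WT counts turned to 1069 higher and 1413 lower, with the median log2 ratio of all genes moved by -0.08, while the KO counts were 1118 and 1144. Beside Top2a and Mki67, which the rule used, the highest were H1f5, H3c3, Hist1h2ap and H2ac8 (replication-dependent histones), the kinetochore genes Cenpf and Cenpe, the spindle genes Nusap1 and Ckap2l, Ube2c (the ubiquitin-conjugating enzyme that starts the exit from mitosis) and Pclaf, a partner of the DNA clamp PCNA. H1f5 went from 1.79 CPM in non-cycling to 474 CPM in cycling WT cells, and from 2.25 to 606 CPM in KO cells. All 45 S phase and all 54 G2 and M phase genes listed were higher in cycling cells of both libraries.

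The genes lowest in cycling cells were, apart from Slfn5, genes of secreted proteins. They included Slfn5, Igfbp5, Lbp, Comp, Clec3b, Gas6, Mgp, Cxcl14, Ccl11, Serping1 and Apod. Mgp, an inhibitor of calcification, stood at 4083 CPM in non-cycling and 1205 CPM in cycling WT cells, and at 2211 and 752 CPM in KO. Igfbp5, which binds insulin-like growth factors, went from 212 to 47.4 CPM in WT and from 219 to 39.4 CPM in KO, and Slfn5, of the Schlafen family, from 170 to 35.5 CPM and from 133 to 25.6 CPM. Among lists of genes, 13 of 26 fibro-adipogenic identity genes were lower in cycling cells of the WT and 14 of 26 in the KO library, and 10 and 9 of 12 complement genes. Collagen and matrix genes were mostly at the level of non-cycling cells, with 5 of 33 lower in WT and 1 of 33 in KO and none higher. Of 22 genes of activated fibroblasts, 7 were higher in cycling cells and 3 lower in WT, and 3 higher and 1 lower in KO.

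The promoters of mitotic genes carry known signatures. The CCAAT box binds the factor NF-Y, and the cell cycle homology region (CHR) binds the complexes that hold mitotic genes silent in resting cells and switch them on in G2. The 250 bases before the RefSeq start (GRCm38.p6) of Cdk1, the kinase that drives entry into mitosis, and of Ccnb2, a cyclin that activates it, are shown since both genes belong to the G2 and M phase list by which members are ordered here. Capitals mark CCAAT or its reverse complement ATTGG and the CHR letters TTTGAA, searched on both strands. The Cdk1 window is chr10:69352913-69353162 (minus strand) and holds 3 CCAAT and 2 CHR matches. The Ccnb2 window is chr9:70421555-70421804 (minus strand) and holds 3 CCAAT matches and 1 CHR match. Of all 27025 genes with a promoter in the table, 37.5% hold CCAAT and 18.3% TTTGAA, against 36 of 45 (80%) and 17 of 45 (37.8%) of the G2 and M phase genes found there. Of 50 replication histone promoters, 42 (84%) hold CCAAT and 19 (38%) TTTGAA. The E2F letters GCGGGAA occur in 4.38% of all genes and in 11 of 33 S phase genes (33.3%). A match describes the letters in this window and is no measured binding.
Cdk1: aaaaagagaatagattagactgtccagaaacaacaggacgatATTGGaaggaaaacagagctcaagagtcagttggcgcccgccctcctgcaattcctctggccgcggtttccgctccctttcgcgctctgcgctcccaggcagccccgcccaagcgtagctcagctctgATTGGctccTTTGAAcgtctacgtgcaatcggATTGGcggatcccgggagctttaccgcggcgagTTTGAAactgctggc
Ccnb2: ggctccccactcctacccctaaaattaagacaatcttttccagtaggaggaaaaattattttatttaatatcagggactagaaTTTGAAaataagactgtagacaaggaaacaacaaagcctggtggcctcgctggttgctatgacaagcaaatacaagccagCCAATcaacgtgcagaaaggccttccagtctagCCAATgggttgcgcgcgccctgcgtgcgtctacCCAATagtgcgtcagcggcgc

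Members differed widely among themselves in cell cycle stage. The share of a cell's UMIs in the 54 G2 and M phase genes ran from 0.0864% through a median of 1.04% to 2.11% in WT, and from 0.0492% through 0.687% to 2.14% in KO. The S phase share ran from 0.0599% through 0.180% to 0.724% in WT and from 0.0591% through 0.273% to 0.863% in KO. The ranges of both libraries overlapped almost wholly. Above the pooled median G2 and M phase share of 0.754% lay 29 of 50 WT cells (58%) and 47 of 102 KO cells (46.1%), and S phase UMIs outnumbered G2 and M phase UMIs in 14 WT (28%) and 34 KO members (33.3%). Replication histone UMIs, which have a short life outside S phase, were few in most members and many in some: the median was 0.0642% in WT and 0.0719% in KO, and the highest cells reached 2.03% and 3.45%.

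**Figure D2:**
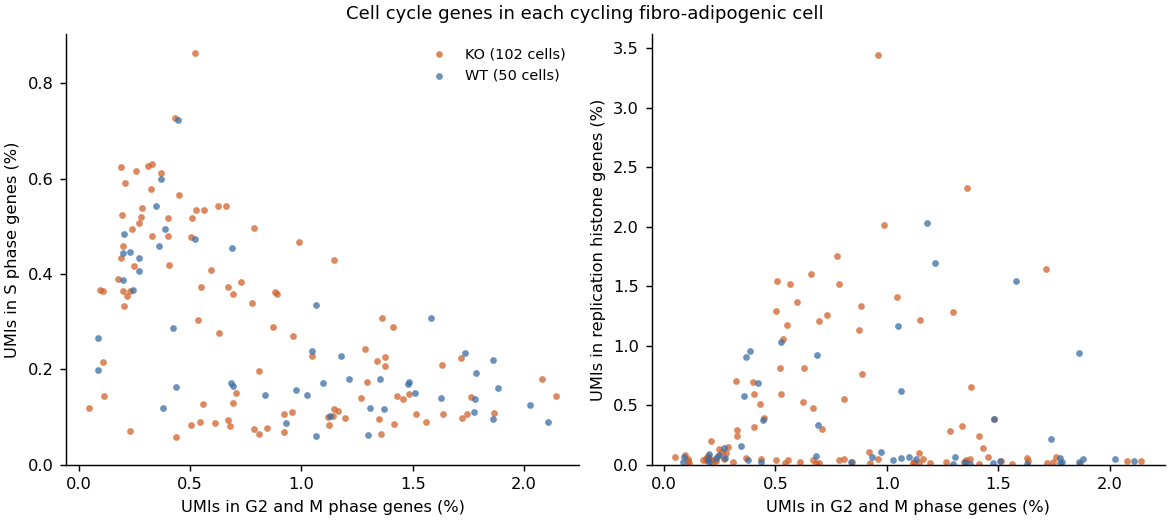
Percent of a cell's UMIs in S phase genes (left) and in replication histone genes (right) against its percent in G2 and M phase genes, 1 point per cycling cell (50 WT, 102 KO). Cells of both libraries cover the same range, with G2 and M phase shares from 0.0492% to 2.14%.

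Within the cycling cells, 575 of 10559 genes with at least 20 UMIs (5.45%) were higher in KO than in WT and 469 (4.44%) lower, and the median log2 ratio of all these genes was 0.03 (5 CPM added to both sides, here and in all log2 ratios). Cell cycle genes differed little and in more than one direction. S phase genes had a median log2 ratio of 0.26, and 5 of 45 were higher and none lower. Among these were Mcm2, part of the replicative helicase (16.9 and 30.5 CPM, ratio 1.80 [1.20 to 2.78]), Cdc6, which loads it (13.5 and 24.4 CPM), Rad51ap1 and Dscc1. G2 and M phase genes had a median of -0.24, and 6 of 54 were lower and none higher. These were Cenpf (394 and 238 CPM, ratio 0.604 [0.548 to 0.666]), Cdc20, which activates the complex that starts anaphase (198 and 128 CPM, ratio 0.644), the mitotic kinase Plk1 (111 and 72.7 CPM, ratio 0.655), Pimreg, Psrc1 and Cdc25c. Cdk1 stood at 271 CPM in WT and 239 CPM in KO and Ccnb1 at 121 and 91.9 CPM, and neither passed the 1.5-fold limit. Replication histones had a median of 0.35 over 41 genes, with 9 higher and none lower, among them H2ac8 (353 and 541 CPM, ratio 1.53), H2bc6 (18.6 and 39.4 CPM, ratio 2.12 [1.45 to 3.18]) and H2bc3 (14.1 and 28.4 CPM, ratio 2.01). Histone genes of one kind are near-identical copies and their counts are uncertain one by one.

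The G2 and M phase difference was not the same in members split by their G2 and M phase share. Among members above the pooled median G2 and M phase share, where 5.40% of all genes were higher in KO and 4.36% lower, the G2 and M phase list had a median of -0.10 (1 of 54 lower, none higher). Among the 21 WT and 55 KO members at or below it, where 5.70% of all genes were higher and 4.14% lower, its median was 0.12 (3 of 53 higher, none lower). The S phase median was 0.19 above and 0.11 at or below it. Replication histones had a median of 0.68 with 18 of 37 higher above it, and 0.26 with 1 of 35 higher at or below it. The list itself split the members here, and the part of cell cycle stage in the differences between the libraries was not tested.

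Among cyclins, CDK inhibitors and their regulators, 4 of 28 were higher in KO members and none lower, where 5.45% of all genes were higher and 4.44% lower. Ccnd2, a D-type cyclin that growth signals induce to open G1, stood at 80.1 CPM [67.4 to 94.4] in WT and 140 CPM [129 to 152] in KO members, a ratio of 1.75 [1.46 to 2.12]. It was at 96.4 and 140 CPM in the non-cycling cells of the same libraries. The other 3 were Cdkn2b, an inhibitor of the D-cyclin kinases (3.95 and 11.5 CPM), Rbl2, a relative of the retinoblastoma protein (7.33 and 15.7 CPM), and E2f6, a repressor of the E2F family (6.20 and 13.6 CPM), all at low counts. Ccnd1 (78.4 and 69.4 CPM), Ccnd3 (68.8 and 57.2 CPM), Cdk4 (244 and 213 CPM) and the inhibitor Cdkn1a (50.7 and 55.3 CPM) did not pass the limit. Cdkn1a stood at 225 and 568 CPM in cycling phagocytes and at 244 and 211 CPM in cycling myogenic cells of the same libraries. Cdkn1c, an imprinted inhibitor that keeps cells out of the cycle, was at 38.9 and 52.3 CPM in members and at 131 and 110 CPM in non-cycling cells.

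**Figure D3:**
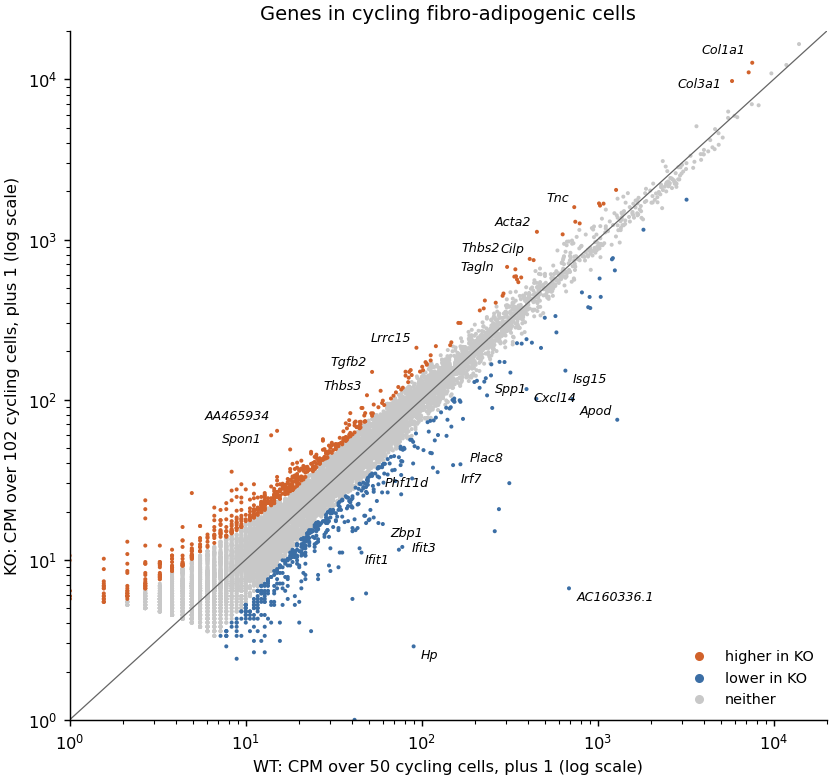
Each point is 1 of the 10559 genes with at least 20 UMIs, with its CPM (plus 1, log scale) over the 50 WT members on the x axis and over the 102 KO members on the y axis. The 575 genes higher in KO are orange and the 469 lower are blue; the 12 highest and 12 lowest by the interval bound nearest to 1 are named, and AC160336.1 lies farthest below the diagonal.

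Interferon-stimulated genes were lower in KO members almost throughout. These are the genes that cells switch on when they sense interferon, and many of their products block viruses. Of 44 with enough UMIs (47 listed), 38 were lower, none was higher, and the median log2 ratio was -1.07, where 4.44% of all genes were lower. Their share of all UMIs was 0.827% in WT and 0.401% in KO members. Isg15, a ubiquitin-like protein attached to other proteins, stood at 655 CPM [618 to 694] in WT and 151 CPM [139 to 163] in KO, a ratio of 0.230 [0.209 to 0.254]. Ifit1 (73.3 and 10.6 CPM, ratio 0.144) and Ifit3 (76.7 and 11 CPM, ratio 0.144), which bind foreign RNA, had smaller ratios than Isg15. With Pdgfra of at least 1 UMI as the limit, the ratio of Ifit3 was 0.303 [0.234 to 0.391] and that of Isg15 0.259. Irf7, the transcription factor that amplifies type I interferon, was at 150 and 38.0 CPM, while Zbp1, which senses left-handed nucleic acid, stood at 59.2 and 15.7 CPM. Bst2, which tethers budding virus (908 and 372 CPM), Ifi27l2a (1041 and 437 CPM) and Ifitm3, which blocks virus entry (3200 and 1773 CPM), were lower at high counts. Plac8 (165 and 38.5 CPM) and Phf11d (122 and 34.2 CPM), which are outside the list, were among the 12 lowest genes too. The 6 listed genes that were not lower were Irf1, Ddx58, Gbp2, Ifi204, Ifit2 and Ifi27, the last at 270 and 290 CPM.

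The interferon difference was spread over the cells. In the 50 WT members, Isg15 ran from 0 through a median of 3.97 to 36.9 UMIs per 10000, and in the 102 KO members from 0 through 0.495 to 23.9. It had a UMI in 47 of 50 WT and 73 of 102 KO members, so the WT cells were mostly high and the KO cells mostly low, with overlapping ranges. The share of a member's UMIs in the whole list ran from 0.197% through 0.767% to 2.12% in WT and from 0.0884% through 0.327% to 1.66% in KO. Free RNA was also poorer in Isg15 in the KO library, with 294 CPM against 619 CPM in WT. Taking all Lyz2 in the members as free RNA, free RNA would give 16.2 CPM of Isg15 in WT and 9.07 CPM in KO members. The part of free RNA in the difference was not tested.

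The difference was present in every class compared and was larger in cycling than in non-cycling fibro-adipogenic cells for part of the list. In non-cycling cells, where 5.22% of 12458 genes were higher and 4.49% lower in KO, 29 of 46 interferon-stimulated genes were lower and 1 higher, with a median of -0.57. Isg15 stood there at 604 and 279 CPM, a ratio of 0.462 [0.436 to 0.489]. For 17 of 44 genes, the interval of the KO to WT ratio in cycling cells lay wholly below that in non-cycling cells, and for none wholly above, where the same held for 4.30% and 1.87% of all 10361 genes tested in both. They included Isg15, Ifit1, Ifit3, Irf7, Bst2, Stat2, Mx1 and Usp18. In cycling phagocytes of the same libraries, 33 of 47 listed genes were lower (median -0.75), where 4.0% of all genes were lower and 11.7% higher. In cycling myogenic cells 31 of 45 were lower (median -0.79), where 6.13% of all genes were lower and 6.02% higher. Whether the size of the difference varies between cell classes was not tested beyond these counting intervals.

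Many interferon-stimulated promoters hold the interferon-stimulated response element (ISRE), to which interferon-activated factors bind and which was searched as the letters GAAA, any 2 bases and GAAA again. The 250 bases before the RefSeq start (GRCm38.p6) are given for Ifit3, Ifit1 and Isg15, the 3 listed genes that stand lowest in the ranking of all genes. Capitals mark ISRE matches on either strand, read on the minus strand as TTTC, any 2 bases and TTTC. The Isg15 window is chr4:156200819-156201068 (minus strand) with 3 overlapping matches between 78 and 57 bases before the start. The Ifit1 window is chr19:34640639-34640888 (plus strand) and the Ifit3 window chr19:34583279-34583528 (plus strand), with 2 matches each. Such a match occurs in 17 of the 33 listed genes found in the table (51.5%) and in 936 of 27025 genes (3.46%), and it describes letters only.
Isg15: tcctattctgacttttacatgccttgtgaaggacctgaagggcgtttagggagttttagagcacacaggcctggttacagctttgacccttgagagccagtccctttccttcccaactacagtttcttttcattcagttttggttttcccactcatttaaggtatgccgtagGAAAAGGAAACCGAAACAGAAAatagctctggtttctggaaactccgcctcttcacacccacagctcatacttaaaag
Ifit1: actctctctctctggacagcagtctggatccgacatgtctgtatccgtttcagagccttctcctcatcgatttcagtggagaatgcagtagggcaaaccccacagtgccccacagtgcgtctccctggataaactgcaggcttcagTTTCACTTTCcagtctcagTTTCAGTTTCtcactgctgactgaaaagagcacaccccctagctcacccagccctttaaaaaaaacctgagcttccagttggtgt
Ifit3: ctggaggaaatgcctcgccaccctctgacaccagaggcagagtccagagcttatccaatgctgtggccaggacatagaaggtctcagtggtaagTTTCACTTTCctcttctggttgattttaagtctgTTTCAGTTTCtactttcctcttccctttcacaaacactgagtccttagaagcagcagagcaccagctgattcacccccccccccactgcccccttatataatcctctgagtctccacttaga

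**Figure D4:**
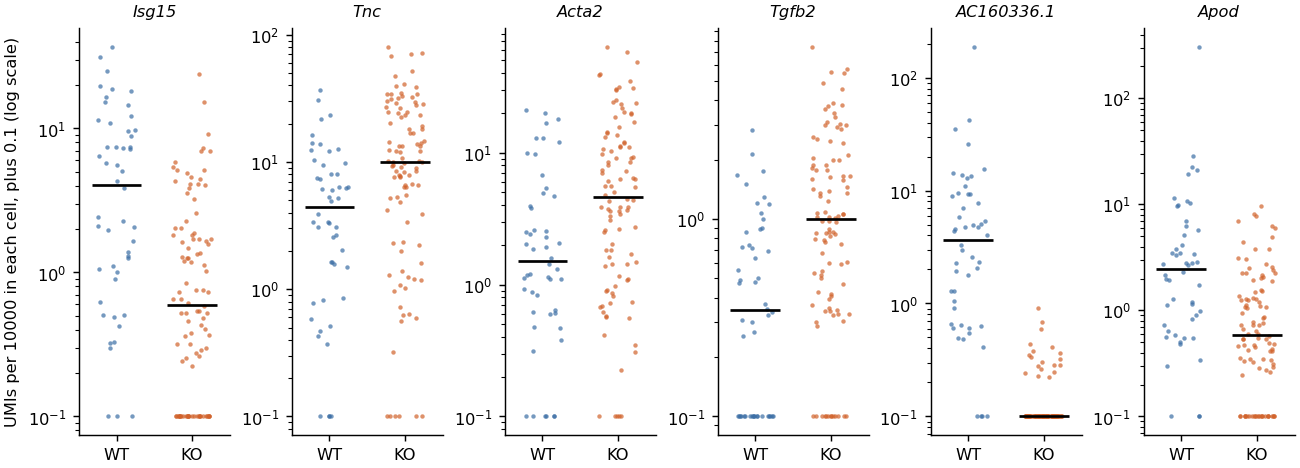
UMIs per 10000 (plus 0.1, log scale) of 6 genes in each of the 50 WT and 102 KO members, with black lines at the medians. Isg15, AC160336.1 and Apod have higher medians in WT (3.97, 3.55 and 2.38) and Tnc, Acta2 and Tgfb2 higher medians in KO (9.88, 4.50 and 0.895).

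MHC class I genes were lower in KO members, and some chemokine and complement genes were, where 4.44% of all genes were lower and 5.45% higher. Of 14 MHC class I presentation genes, which display peptides to T cells, 11 were lower and none higher (median -0.78), with B2m at 813 and 466 CPM, H2-D1 at 575 and 332 CPM and the immunoproteasome subunit Psmb8 at 152 and 101 CPM. The median in non-cycling cells was -0.76, and no gene of this list had intervals apart from those of non-cycling cells. H2-Ab1, an MHC class II chain outside the list, was higher (84.0 and 148 CPM, ratio 1.76 [1.47 to 2.12]). Among 12 chemokines, 5 were lower and none higher (median -0.39). They were Cxcl5 (75.5 and 24.6 CPM), Cxcl9 (251 and 87.7 CPM), Cxcl10 (422 and 226 CPM), Cxcl12, which retains stem and immune cells (476 and 209 CPM), and Ccl11 (88.5 and 38.9 CPM). Ccl2, which draws monocytes, was at 1381 and 1437 CPM. Of 12 complement genes, C3 (115 and 36.6 CPM, ratio 0.318 [0.257 to 0.394]), Cfb and C4b were lower, and the complement inhibitors Cd55 (5.64 and 20.2 CPM) and Cd59a (1 and 25 UMIs, ratio 10.4 [1.70 to 427]) were higher.

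Genes of activated, matrix-laying fibroblasts were higher in KO members. Of 22 such genes, 11 were higher and none lower, where 5.45% of all genes were higher and 4.44% lower. The 22 had a median log2 ratio of 0.57 and a share of UMIs of 1.54% in WT and 2.10% in KO. Acta2, the smooth muscle actin of contractile fibroblasts, stood at 451 CPM [420 to 483] in WT and 1117 CPM [1085 to 1149] in KO, a ratio of 2.48 [2.30 to 2.67]. Tnc, a matrix protein laid down in healing tissue, was at 736 and 1593 CPM (ratio 2.16 [2.04 to 2.30]). Per cell, Tnc ran from 0 through a median of 4.30 to 36.8 UMIs per 10000 in WT and from 0 through 9.88 to 80.3 in KO, and Acta2 from 0 through 1.41 to 21.1 and from 0 through 4.5 to 63.5. The KO cells were shifted upwards for both genes and still overlapped the WT cells. Lrrc15, a surface protein of matrix-laying fibroblasts (92.5 and 210 CPM), the actin-binding Tagln (340 and 651 CPM), Cilp, which binds TGF-beta (410 and 756 CPM), Fn1 (1272 and 2041 CPM) and Cthrc1 (1031 and 1628 CPM) were also higher. Timp1 (1334 and 957 CPM) and Mdk (107 and 76.0 CPM) had ratios under 1 that did not pass the limit. The list shifted in the same direction in the other classes compared. In non-cycling cells 10 of 22 were higher and none lower (median 0.52), where 5.22% of all genes were higher. In cycling phagocytes 13 of 18 were higher and none lower (median 1.02), where 11.7% of all genes were higher. In cycling myogenic cells 7 of 18 were higher and 2 lower (median 0.39), where 6.02% of all genes were higher.

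Matrix genes followed in part. Of 33 collagen and matrix genes, 10 were higher and none lower (median 0.26), where 5.45% of all genes were higher. They included Col12a1 (228 and 415 CPM, ratio 1.82), Col5a1 (746 and 1291 CPM, ratio 1.73), Col6a1 (632 and 1076 CPM, ratio 1.70), Fbn1, which forms microfibrils (790 and 1260 CPM), and Col1a2 (7216 and 11072 CPM, ratio 1.53). Col1a1 (7560 and 12713 CPM, ratio 1.68) and Col3a1 (5804 and 9775 CPM, ratio 1.68) were among the 12 highest genes, and the rule used both, since it asked for at least 100 UMIs of these and Dcn. Dcn stood at 2190 CPM in WT and 1707 CPM in KO. Thbs2 (305 and 674 CPM, ratio 2.21 [2.01 to 2.43]) and Thbs3 (47.9 and 106 CPM, ratio 2.20), matrix thrombospondins, were higher too. Spon1, a matrix protein of the spondin family, went from 13.0 CPM in 10 of 50 WT cells to 58.9 CPM in 51 of 102 KO cells (ratio 4.54 [2.96 to 7.29]). Basement membrane genes showed no such pattern: Col4a1 (164 and 98.0 CPM) and Col4a2 (90.2 and 50.2 CPM) were lower and none of 13 was higher. Tenocyte markers stood beside these matrix genes at 591 CPM in WT and 763 CPM in KO members, with 6 and 7 of 7 having a UMI and Kera at 0 in WT. The tendon factor Scx had 11.3 CPM in 6 of 50 WT cells and 23.7 CPM in 29 of 102 KO cells, and Fmod, a collagen-binding proteoglycan, 16.9 and 47.8 CPM. Tnmd, which the rule limited, had 2.82 and 2.11 CPM. The part of tendon cells in the matrix difference was not tested.

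Against non-cycling cells, 13 of 33 matrix genes had a ratio interval wholly above (among them Col1a2, Col5a1, Col5a2, Col6a1, Col6a3 and Fbn1) and 1 wholly below, where 1.87% and 4.30% of all genes did. The list as a whole was not higher, with a median log2 ratio of 0.26 in members and 0.28 in non-cycling cells. In non-cycling cells 5 of the 33 were higher and 2 lower, where 5.22% and 4.49% of all genes were. Activated fibroblast genes split, with 5 of 22 above (Aspn, Bgn, Cilp, Postn and Ptn) and, against the same shares of all genes, 5 below (Ncam1, Tagln, Timp1, Tnc and Tnn). Cilp, with a ratio of 1.84 [1.70 to 2.0] in cycling cells, had 1.12 [1.08 to 1.17] in non-cycling cells. Tnc had 2.72 [2.58 to 2.87] there, larger than its 2.16 among members.

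Among secreted growth factors and cytokines, 5 of 28 were higher and 4 lower in KO members. Tgfb2, a TGF-beta ligand that drives fibroblasts to make matrix, stood at 51.3 CPM [41.3 to 63.0] in WT and 148 CPM [137 to 160] in KO, a ratio of 2.88 [2.31 to 3.63], and had a UMI in 31 of 50 WT and 89 of 102 KO members. In non-cycling cells its ratio was 1.67 [1.47 to 1.89]. Tgfb1 (33.3 and 35.9 CPM) and Tgfb3 (108 and 120 CPM) did not pass the limit. Lif, a cytokine of the interleukin-6 family, was at 3.95 and 25.1 CPM (7 and 107 UMIs, ratio 6.36 [2.98 to 16.2]), and Pdgfc, Nrg1 and Grem1, which blocks BMP signals, were higher at low counts. Angptl4, an inhibitor of lipoprotein lipase (295 and 171 CPM), Vegfa, which promotes vessel growth (37.8 and 22.3 CPM), Fgf7 (18.0 and 10.3 CPM) and the alarmin Il33 (107 and 71.3 CPM) were lower. Of their receptors, 1 of 23 was higher (Tgfbr1, 17.5 and 27.7 CPM) and 1 lower (Tnfrsf1a, 149 and 98.5 CPM), shares near the 5.45% and 4.44% of all genes. In a list of 14 TGF-beta and YAP response genes, Ltbp1, which anchors latent TGF-beta in the matrix (38.3 and 81.4 CPM), and Amotl2 were higher, and Ccn2 (229 and 261 CPM) and Smad7 (81.7 and 110 CPM) did not pass the limit.

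Binding proteins and proteases gave single genes, where 5.45% of all genes were higher and 4.44% lower in KO members. Igfbp6, which binds insulin-like growth factor 2, was at 161 and 300 CPM (ratio 1.87 [1.64 to 2.13]), the 1 higher of 6 such genes. Among Wnt antagonists, Sfrp2 was lower (883 and 377 CPM, ratio 0.427) and Sfrp4 higher (8.46 and 19.5 CPM). Of 19 proteases and inhibitors, the matrix-degrading Mmp3 (39.5 and 4.69 CPM, with 81.4% of its WT UMIs in 1 cell) and the protease inhibitor Serpine2 (147 and 66.8 CPM) were lower, and Adamts2, which trims procollagen (144 and 218 CPM), Adamts5 and Htra3 were higher.

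Fibro-adipogenic identity genes moved in both directions, with 4 of 25 higher and 2 lower in KO members, where 5.45% of all genes were higher and 4.44% lower. Pi16, a mark of quiescent adventitial fibroblasts, was at 8.46 and 28.6 CPM (ratio 3.38 [1.97 to 6.23]) and Cd55 at 5.64 and 20.2 CPM, while in non-cycling cells their ratios were 0.716 and 0.80. Ackr3 and Sema3c were also higher. Ly6a, the surface antigen Sca-1 that is used to sort these cells and that interferon induces, was at 1252 and 641 CPM (ratio 0.512 [0.484 to 0.541]), and Cxcl14 at 393 and 115 CPM. Prrx1 (333 and 403 CPM), Cd34 (96.4 and 127 CPM) and Thy1 (126 and 118 CPM) did not pass the limit. Of 11 adipogenic genes, the factors Cebpb (231 and 135 CPM) and Cebpd (369 and 223 CPM) were lower and Zfp423 was higher (2.25 and 7.97 CPM, 4 and 34 UMIs). Fabp4, a fat cell gene, was at 26.5 and 23.2 CPM. Sox9 (86.8 and 55.1 CPM), a cartilage factor, was lower.

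Imprinted genes, which are read from 1 parental copy, had a median log2 ratio of 0.31 in members and of -0.04 in non-cycling cells. Of 17, H19, a long non-coding RNA (432 and 743 CPM, ratio 1.72 [1.59 to 1.86]), and Peg3 (46.2 and 71.8 CPM, ratio 1.55) were higher and none lower. Of all genes tested in members, 5.45% were higher and 4.44% lower. For 8 of 17 the ratio interval lay wholly above that of non-cycling cells and for none below, where 1.87% of all genes lay above and 4.30% below. They were Cdkn1c, Dlk1, H19, Igf2r, Meg3, Mest, Peg10 and Peg3. H19 stood at 391 and 477 CPM in non-cycling cells, and at 51.5 and 26.4 CPM in cycling phagocytes and 266 and 198 CPM in cycling myogenic cells.

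The smallest ratio among the 12 lowest genes of the ranking belonged to AC160336.1, a long intergenic non-coding RNA at chromosome 14, 44544055 to 44637201 on the minus strand (GRCm38, GENCODE). It stood at 687 CPM [649 to 726] in WT and 5.63 CPM [3.61 to 8.37] in KO members, a ratio of 0.00820 [0.00523 to 0.0123]. Per cell it ran from 0 through a median of 3.55 to 187 UMIs per 10000 in WT and from 0 through 0 to 0.803 in KO. It had UMIs in 46 of 50 WT and 19 of 102 KO members, so nearly all WT cells had it and most KO cells did not. Non-cycling cells held 247 and 2.59 CPM, cycling phagocytes 703 and 2.67 CPM and cycling myogenic cells 635 and 7.24 CPM, so the difference was there in each class. AA465934, a processed transcript at chromosome 11, 83291699 to 83294632, was higher in KO in the same classes: 14.1 and 62.8 CPM in members (ratio 4.46 [2.96 to 7.02]), 9.79 and 39.7 CPM in non-cycling cells, 9.75 and 44.3 CPM in cycling phagocytes and 7.18 and 56.1 CPM in cycling myogenic cells.

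Some of the lowest genes rested on few cells. Apod, a lipid-binding protein, was at 718 and 99.9 CPM (ratio 0.139 [0.124 to 0.155]), but 1 WT cell held 47.7% of its WT UMIs, and without the highest cell of each library the ratio was 0.243 [0.213 to 0.275]. Per cell it ran from 0 through 2.38 to 307 UMIs per 10000 in WT and from 0 through 0.483 to 9.48 in KO. Hp, haptoglobin, was at 89.1 and 1.88 CPM, with 51.9% of its WT UMIs in 1 cell, and had a ratio of 0.0211 with and 0.0326 without the highest cells. Its ratio was 0.0481 with the highest Scrublet (doublet) scores left out, where its WT UMIs went from 158 to 64, and 0.0428 with a limit of 2 Mki67 and Top2a UMIs. Spp1, osteopontin, was at 448 and 100 CPM, with 45.3% of its WT UMIs in 1 cell. Its ratio was 0.224, and 0.357 when each cell was weighted equally, and the median cells held 0.305 and 0.352 UMIs per 10000, with no lower value in KO. Taking all Lyz2 in the members as free RNA, free RNA would give 36.6 CPM of Spp1 in WT and 45.2 CPM in KO members. Both medians are below that level, so they cannot show whether the Spp1 of the cells themselves differed. Cxcl14 had 38.3% of its WT UMIs in 1 cell and a ratio of 0.393 without the highest cells, against 0.293 with them. With a limit of 2 Mki67 and Top2a UMIs the ratios were 0.185 for Cxcl14 and 0.0766 for Apod.

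Setdb1 itself was not lower in KO members. It stood at 11.8 CPM [7.33 to 18.1] in WT (21 UMIs) and 22.8 CPM [18.5 to 27.8] in KO (97 UMIs), a ratio of 1.92 [1.19 to 3.24]. In non-cycling fibro-adipogenic cells it was at 13.9 and 15.2 CPM, and in cycling myogenic cells at 25 and 10.4 CPM. Counts from the 3' end check a deletion only where it removes that end, and the sources used here do not say which part of Setdb1 is removed, or in which cells. These values therefore do not check the label. Of 23 genes of H3K9 methylation and heterochromatin, Setdb1 and the DNA methyltransferase Dnmt1 (58.6 and 94.3 CPM) were higher and the H3.3 chaperone Daxx lower (27.1 and 13.4 CPM). These 2 and 1 of 23 are near the shares of all genes, 5.45% higher and 4.44% lower. None of the 23 had a ratio interval apart from that of non-cycling cells. A list of 14 genes that were raised in KO myogenic cells of these libraries, and were chosen for it, had 9 measured in members, with none higher and 2 lower (Gstt1 and Tubb3). In cycling myogenic cells 13 of its genes were higher. Of 12 genes chosen as lost in KO myogenic cells, 11 were measured in members, and AC160336.1, Irf7, Iigp1 and Col4a2 were lower and Htra3 higher.

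No energy metabolism gene examined passed the limit between KO and WT members. This was so for all of the 16 glycolysis genes (median -0.02), with Gapdh at 1299 and 1226 CPM, and all of the 31 nuclear respiratory chain genes (median -0.11). In non-cycling cells the medians were 0.28 and 0.09, and 10 of 16 glycolysis and 12 of 31 respiratory chain genes had a ratio interval in members wholly below that of non-cycling cells, as 4.30% of all genes had. None of 17 ribosome biogenesis genes passed the limit (median 0.20). Of 30 immediate early and heat shock genes, which rise with dissociation of tissue, Nr4a1 (94.2 and 49.0 CPM), Socs3, the feedback inhibitor of cytokine signals (247 and 141 CPM), and Egr2 were lower and none higher (median 0.01). Of 20 p53 targets, 3 were higher, Gdf15 (10.1 and 28.6 CPM), Zmat3 and Sesn1, and 3 lower, Gadd45g (582 and 262 CPM), Gadd45a and Plk3. Of all genes tested in members, 5.45% were higher and 4.44% lower in KO.

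The differences in interferon-stimulated and activated fibroblast genes were there on both sides of the split by G2 and M phase share. Among members above the pooled median G2 and M phase share, 27 of 43 interferon-stimulated genes were lower (median -0.87), and among those at or below it 34 of 41 (median -1.33), with none higher in either, where 4.36% and 4.14% of all genes were lower. Activated fibroblast genes had medians of 0.44 (9 of 22 higher, none lower) and 0.60 (12 of 22 higher, 2 lower), where 5.40% and 5.70% of all genes were higher. Collagen and matrix genes had medians of 0.38 (9 of 33 higher, none lower) and 0.36 (10 of 33 higher, 3 lower). With every member thinned to 5000 UMIs, fewer genes passed the limit, 236 higher and 182 lower. Of these, 80 and 90 were also called without thinning.

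**Figure D5:**
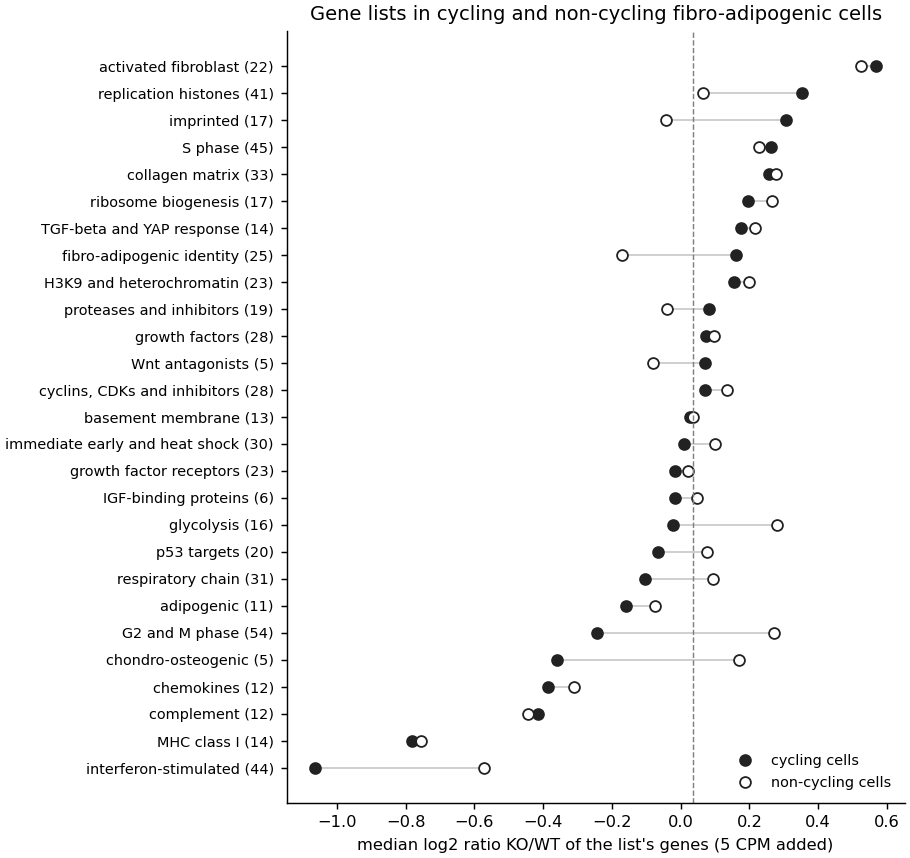
Median log2 ratio of KO to WT (5 CPM added) for each gene list, in cycling cells (filled) and non-cycling cells (open), with the number of genes tested in cycling cells in brackets; the dashed line is the median of all 10559 genes, 0.03. Interferon-stimulated genes lie lowest in cycling cells (-1.07) and activated fibroblast genes highest (0.57).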

How the data were processed

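Single-cell RNA-seq of 1 WT and 1 KO library was analysed from the deposited matrices, which hold whole-number UMI counts per gene and barcode with no normalization, per the values in them. The authors' filter on cells was not used, since every barcode is listed (2821644 and 3331422). Per the submitters' processing notes, the build was GRCm38 and the tools include Seurat 4.0.1, STAR 2.7.8a and STARsolo 2.7.9a. The sources used here do not give the annotation release or how reads were counted.

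Members were found by the rule given at the start of the report, and their counts summed per library and scaled to CPM. Depth sets the precision: the sums hold 1773848 and 4264210 UMIs. Ratios carry conditional binomial intervals, CPM exact Poisson and shares Clopper-Pearson intervals (95%). A gene was tested with at least 20 UMIs over both sums and called at 1.5-fold with an interval not holding 1. Genes named are the 12 highest and 12 lowest by the interval bound nearest to 1 among genes of at least 50 CPM in 1 library, without mitochondrial, ribosomal protein, haemoglobin, immunoglobulin, Xist, Y-linked, Gm-number and Rik genes, plus genes of the lists. A few genes are not reported here. Other genes named, such as those of a list that passed or missed the limit, were chosen after their values were seen. The members and gene lists were chosen with earlier results of these data known, and support nothing independently. Doublets were not removed: the Scrublet threshold in scanpy 1.11.5 marked 0 barcodes in both libraries, and leaving out the highest scores was an alternative. The interval code was tested on simulated counts. Scaling alternatives used edgeR 4.0.16 (TMM) and DESeq2 1.42.0 size factors in R 4.3.3. Promoters come from RefSeq (GRCm38.p6) and gene positions from GENCODE. Alternatives chosen after seeing the data were Pdgfra of at least 1 UMI, equal weight per cell, the split by G2 and M phase share, leaving out the top cell per gene, a limit of 1 UMI or per 10000 UMIs and the count of other G2 and M phase genes.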

Additional observations from a re-analysis of the deposited data

Results flagged for a closer look

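In 11 genes given here, out of 10361 tested in both groups, the KO to WT ratio passed the limit in opposite directions in cycling and non-cycling fibro-adipogenic cells. They were picked as extremes from all these genes. The difference between the 2 groups of cells was not tested. H2-Ab1, an MHC class II gene, had a ratio of 1.76 [1.47 to 2.12] in cycling cells (84.0 and 148 CPM) and of 0.526 [0.448 to 0.616] in non-cycling cells (73.9 and 38.9 CPM). Has2, which makes hyaluronan, had 0.658 [0.539 to 0.806] in cycling cells (91.9 and 60.5 CPM) and 1.53 [1.35 to 1.74] in non-cycling cells. Aldh1a3, which makes retinoic acid, had 0.616 in cycling and 2.01 in non-cycling cells, and the chemokine gene Cxcl3 had 0.461 and 1.69. The spindle gene Fam83d had 0.635 and 2.82, with few UMIs in non-cycling cells. Usp53 had 0.458 in cycling cells and the gene model Gm42679 0.468, against 1.55 and 1.99 in non-cycling cells. In the other direction, Fam13a had 8.74 [2.27 to 74.5] in cycling and 0.546 in non-cycling cells, Scube2 5.13 and 0.627, Tac1, which encodes substance P, 2.37 and 0.427, and the gene model Gm17251 2.11 and 0.604. All 4 of these were under 20 CPM in every sum.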

How the results depend on the processing

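No paired analysis was possible because each group is 1 library, and no replicate could be left out. The ratio of the cycling shares stayed between 1.77, with a limit of 1 Mki67 and Top2a UMI, and 3.27, after thinning, over 11 alternatives. Counts of genes higher and lower moved from 575 and 469 to 236 and 182 with members thinned to 5000 UMIs, to 348 and 241 with at least 100 UMIs per gene and to 225 and 215 at 2-fold, each of which leaves fewer genes able to pass. After thinning, only 80 of the 236 and 90 of the 182 genes were also called without it, so single calls depend on depth. They were 567 and 473 with TMM and 607 and 457 with DESeq2 scaling. Counts of genes higher in cycling cells moved from 1335 to 743 in WT and from 1121 to 704 in KO at 2-fold. With TMM they were 1069 higher and 1413 lower in WT, against 1335 and 1058, and 1118 and 1144 in KO, against 1121 and 1141. The G2 and M phase median of -0.24 turned to 0.12 in members at or below the pooled median G2 and M phase share; this alternative selects on that list. Of the alternatives for the main results, 134 gave the same verdict, 8 moved and 1 reversed in direction. The interferon median ranged from -0.87 to -1.33 and the activated fibroblast median from 0.44 to 0.61. The median of fibro-adipogenic identity genes, 0.16, was -0.06 with at least 2 Mki67 and Top2a UMIs. The chemokine median of -0.39 was -0.19 with at least 8 of these UMIs, -0.55 with the highest Scrublet scores left out, and -0.24 and -0.61 above and at or below the pooled median G2 and M phase share. Cilp fell under the limit at a cut of 8 UMIs (1.48), and Thbs3 after thinning (1.82 [0.994 to 3.56]). Ratios over 1.5 times apart from the reported one were also 0.00524 for AC160336.1 with equal weight per cell, 0.356 for Spp1 after thinning and 0 [0 to 0.0747] for Hp after thinning. Leaving out the highest Scrublet scores removed 5 WT members and 1 KO member. The limits are 1 library per group, 50 WT members, and a selection on 2 genes whose detection grows with depth.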

Other observations

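Genes that are not among the 12 highest or 12 lowest of the ranking, some of them below its 50 CPM limit, gave further values, chosen after they were seen. Phkg1, a subunit of phosphorylase kinase, was at 1.69 CPM in WT and 22.5 CPM in KO members (ratio 13.3 [4.42 to 65.7]) and had a ratio of 0.964 in non-cycling cells. Its WT value rests on very few UMIs, so the size of the ratio in members is uncertain. Fmod, given above among the tenocyte markers, had a ratio of 2.83 [1.92 to 4.30] in members and 1.43 in non-cycling cells. Pttg1, securin, was at 118 and 54.6 CPM (ratio 0.464), and had a ratio of 1.35 in non-cycling cells. The metal-binding genes Mt1 (1026 and 570 CPM) and Mt2 (319 and 147 CPM) were lower in KO members. Socs1, a feedback inhibitor of interferon signals, was at 113 and 45.3 CPM, with 34.8% of its WT UMIs in 1 cell. The odorant receptor gene Olfr71 had all of its WT UMIs in 1 cell, at 40.6 CPM, and none in KO.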
